A study of Mus musculus with 12 samples.

Results

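Germ cells from embryonic ovaries were compared with germ cells from embryonic testes by their microRNAs. The comparison rested on 6 of the 12 small RNA libraries of the study, 3 female and 3 male, chosen by their labels as primordial germ cells (PGCs), from which eggs or sperm later form. Each sex had 1 library from embryonic day 11.5 (E11.5), 1 from E12.5 and 1 from E13.5, so that female and male libraries formed 3 pairs by stage. The other 6 libraries hold gonadal somatic cells (SC) of the same sexes and stages. All 616 listed microRNAs were taken in, and 373 of them, with a mean of at least 30 reads per 1000000 microRNA reads of the library (RPM) over the 6 PGC libraries, were tested.

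All groups were embryos of the outbred CD1 strain, and the labels name no mutation, transgene or treatment. Embryos of E11.5 and E12.5 were sexed by PCR, the mesonephros was taken off, and about 80 gonads at a time were pooled, dissociated and passed over a magnetic column with beads against CD15, a surface sugar of mouse germ cells. The labels give a PGC share of 93 to 96% in the bead-bound fractions by a germ cell stain. Each library is therefore a pool of embryos, and no combination of sex and stage was sequenced more than once.

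MicroRNAs are short RNAs that bind messenger RNAs mainly through their seed, the stretch near the 5′ end, and lower the output of the messages they bind. In the gonad, XX germ cells enter meiosis while XY germ cells, enclosed by the forming testis cords, stop dividing and wait in mitotic arrest. Both start from a similar state that shares part of its microRNA content with embryonic stem cells, above all the miR-290 cluster, and both pass through the days when their somatic surroundings take on an ovarian or testicular fate.

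The mature sequences below are those of the microRNAs that the sex comparison turns on, from RefSeq (GRCm38.p6), 5′ to 3′, with the seed (bases 2 to 8) in capitals. The first set stood higher in male PGCs at every stage in RPM: the miR-182 cluster at chr6:30165962-30169732 and 5 microRNAs with the seed AAAGUGC, encoded at 3 places (chromosome 14 for miR-17 and miR-20a, X for miR-20b and miR-106a, 5 for miR-93).
miR-182-5p: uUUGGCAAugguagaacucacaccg
miR-183-5p: uAUGGCACugguagaauucacu
miR-96-5p: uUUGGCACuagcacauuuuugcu
miR-17-5p: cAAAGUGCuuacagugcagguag
miR-20a-5p: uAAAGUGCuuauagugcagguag
miR-20b-5p: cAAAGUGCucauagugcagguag
miR-106a-5p: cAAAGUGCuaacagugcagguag
miR-93-5p: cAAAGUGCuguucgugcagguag
The second set is from the germ cell cluster miR-290 at chr7:3218639-3220837, shown because miR-291a-3p and miR-294-3p carry a seed moved by 1 base against AAAGUGC.
miR-291a-3p: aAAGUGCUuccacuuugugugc
miR-294-3p: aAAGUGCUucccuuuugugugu
miR-292a-5p: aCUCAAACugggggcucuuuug
The third set stood higher in female PGCs at every stage. It holds a pair from the imprinted Dlk1-Dio3 region (miR-329-3p and miR-495-3p, in chr12:109563744-109747949), markers of stromal and endothelial cells (miR-199a-3p, miR-214-3p and miR-126a-3p), and let-7c-5p and miR-125b-5p, whose counterparts in worms, let-7 and lin-4, time larval development.
miR-329-3p: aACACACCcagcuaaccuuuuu
miR-495-3p: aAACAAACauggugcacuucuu
miR-199a-3p: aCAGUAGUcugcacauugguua
miR-214-3p: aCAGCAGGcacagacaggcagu
miR-126a-3p: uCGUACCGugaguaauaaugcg
let-7c-5p: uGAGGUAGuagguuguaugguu
miR-125b-5p: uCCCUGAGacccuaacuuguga

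The PGC libraries held 166804 to 1221211 microRNA reads, and the file lists no value below 5 reads, which equals 4.09 to 29.98 RPM depending on the library. Between 350 and 519 of the 616 microRNAs were listed above 0 in a PGC library, 300 were so in all 6, and 49 in none. The germ cell label was checked against the 14 listed members of the miR-290 cluster. They took 0.235% of the reads in the female E11.5 library (exact 95% Clopper-Pearson interval 0.226 to 0.244%, counting error only), against 7.13% in its male partner and 9.78 to 14.3% in the 4 later PGC libraries. The 6 SC libraries held 0.0244 to 0.604%. The library labelled female PGC E11.5 thus lay inside the range of the SC libraries of all stages in its miR-290 share. Beside the E11.5 SC libraries alone its miR-290 sum was higher, at 2348 RPM against 336 RPM (female) and 244 RPM (male). The female E11.5 PGC library lay above all SC libraries in its sums of the miR-302 cluster (568 RPM against 26 to 495 RPM) and of the miR-182 cluster (6550 RPM against 1416 to 4458 RPM). The miR-302 list, planned as a germ cell marker, did not part the fractions across stages, with 69 to 239 RPM in the 4 later PGC libraries. Within each sex and stage the PGC library held 1.15 to 2.65 times the miR-302 sum of its SC partner. In the female E11.5 PGC library the X-linked Fx-mir cluster summed to 43 RPM, inside the SC range of 0 to 3232 RPM, whose upper end came from E13.5. The E11.5 SC libraries held 16 RPM (female) and 0 RPM (male) of it. The stromal marker sum of the female E11.5 PGC library, 97255 RPM, also lay inside the SC range of 82358 to 130883 RPM. It was below the sums of the E11.5 SC libraries, 130883 RPM (female) and 98917 RPM (male). The counts, the lists and the microRNAs described in most detail are therefore given with all 3 pairs and again with the E12.5 and E13.5 pairs (the later pairs) alone.

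No microRNA differed between female and male PGCs past the threshold. With limma on log2(RPM + 10), stage as a block and Benjamini-Hochberg adjustment, 0 of 373 passed an adjusted p of 0.05 in either direction (0% called), and the smallest adjusted p was 0.247. At an unadjusted p under 0.05 there were 61, of which 49 stood higher in female PGCs (13.1%) and 12 higher in male PGCs (3.22%). That count of 61 was 26 to 43 without 1 of the pairs, 24 on deposited values and 0 without the stage block. Without the E13.5 pair the split turned to 16 female-higher and 27 male-higher. With stage as a linear term it was 21, and 1 to 36 without 1 of the libraries, with 1 when the male E12.5 library was left out. With the E12.5 and E13.5 pairs alone, 0 passed again (0% called, smallest adjusted p 0.427 by limma), and 35 had an unadjusted p under 0.05, 29 female-higher (7.77%) and 6 male-higher (1.61%). With 1 pooled library per sex and stage, a p-value here covers the spread among these libraries only, and 3 pairs cannot bring an exact sign-flip test below 0.25.

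Directions across the pairs set the background for what follows. Of the 373 tested microRNAs, 101 stood higher in the female library at all 3 stages (27.1%) and 53 higher in the male library at all 3 (14.2%). In both later pairs, 126 were female-higher (33.8%) and 75 male-higher (20.1%). Female and male values did not overlap at all for 6 female-higher microRNAs (1.61%), let-7c-5p, miR-672-5p, miR-351-5p, miR-1298-5p, miR-22-3p and miR-676-5p, and for 7 male-higher ones (1.88%), miR-296-3p, miR-17-5p, miR-93-5p, miR-106a-5p, miR-20b-5p, miR-99b-3p and miR-744-5p. Of these 7, miR-17-5p, miR-93-5p, miR-106a-5p and miR-20b-5p share the seed AAAGUGC printed above.

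The authors' own scale moved the centre of the comparison. On the deposited values, the median log2 difference of the microRNAs with at least 100 RPM in either library was 1.33 at E11.5, -0.28 at E12.5 and 0.33 at E13.5, against 0.10, 0.16 and 0.24 in RPM. Over the 3 pairs the median of all 373 went from 0.05 in RPM to 0.35 on the deposited scale, and in the later pairs from 0.14 to 0.00. At an unadjusted p under 0.05 the deposited scale had 20 female-higher microRNAs (5.36%) and 4 male-higher ones (1.07%). A microRNA at a constant share of the reads therefore reads as higher in female PGCs at E11.5 on that scale, and directions below are given in RPM. On the deposited scale the E11.5 pair turned to female-higher for miR-17-5p, miR-93-5p, miR-20a-5p, miR-106b-5p, miR-18b-5p, miR-92a-3p, miR-296-3p, miR-744-5p, miR-99b-3p, miR-302b-3p, miR-302d-3p, miR-199b-5p, miR-200b-3p, miR-140-3p, miR-101b-3p, miR-677-5p and miR-421-3p. The E12.5 pair turned to male-higher for miR-294-3p, miR-295-3p, miR-291a-5p, miR-291b-5p, miR-10a-5p, miR-10b-5p, miR-22-3p and miR-221-3p. The E13.5 pair turned to female-higher for miR-96-5p, miR-881-3p, miR-291a-5p, miR-148a-3p, miR-200b-3p, miR-302d-3p, miR-665-3p and miR-674-5p.

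**Figure D1:**
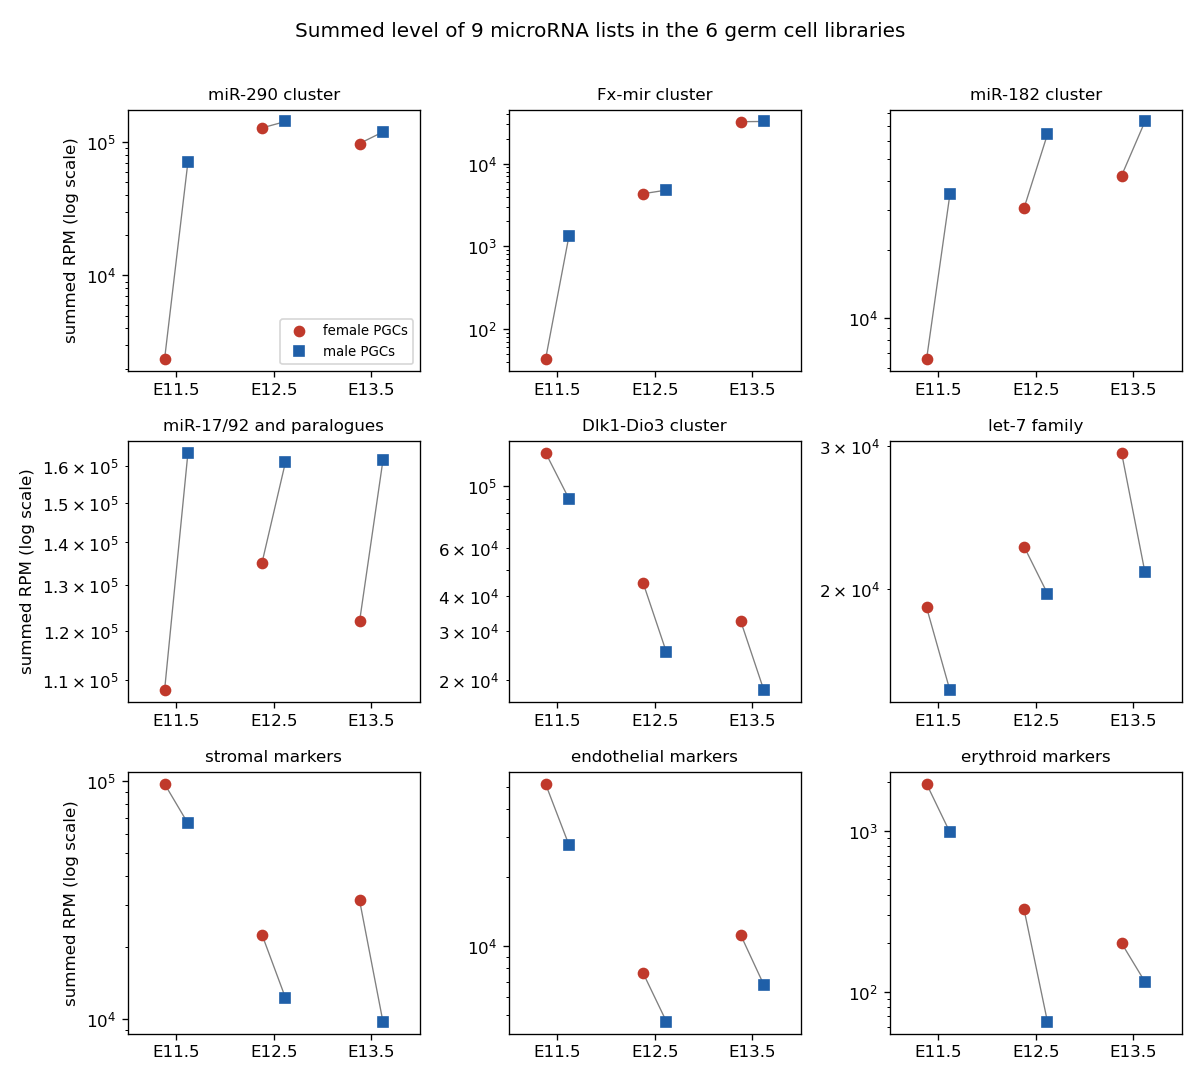
Summed RPM (log axis, with its own range in each panel) of 9 microRNA lists in each PGC library, by stage, with female libraries as red circles and male libraries as blue squares joined within a stage. The miR-182 and miR-17/92 sums were higher in the male library of every pair, and the Dlk1-Dio3, let-7, stromal, endothelial and erythroid sums in the female library of every pair; on the deposited scale the E11.5 pair of miR-17/92 and the E12.5 pair of let-7 turned.

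The miR-182 cluster, made as 1 transcript with miR-183 and miR-96 and abundant in germ cells and sensory organs, stood higher in male PGCs at all 3 stages. miR-182-5p stood at 3985 RPM in female and 22489 RPM in male PGCs at E11.5, at 18585 and 40842 RPM at E12.5, and at 24966 and 46280 RPM at E13.5. The male library was the higher of each pair, although the groups overlapped, because the female level at E13.5 exceeded the male level at E11.5. The fitted log2 difference (female minus male) was -1.51 ± 0.39 (SE, n = 3 pairs), with an unadjusted p of 0.0145 and an adjusted p of 0.247 by limma. Each ± value here and below is the moderated SE of limma, drawn toward the spread of the other tested microRNAs. It is not the scatter of that microRNA's own pairs alone. In the later pairs alone it was -1.01 ± 0.32. The deposited values, 3578 against 8312, 1965 against 6021 and 9716 against 16739, kept the male library higher in every pair.

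miR-183-5p, the most similar member in level, stood at 2295 and 11046 RPM (E11.5, female and male), 11451 and 22430 RPM (E12.5), and 14391 and 24129 RPM (E13.5), a log2 difference of -1.33 ± 0.37, and -0.86 ± 0.31 in the later pairs. miR-96-5p stood at 262.9 and 1617 RPM, 455.6 and 1260 RPM, and 2921 and 3054 RPM. Its E13.5 pair was nearly level and was female-higher on the deposited scale (1137 and 1105). Its log2 difference of -1.36 ± 0.53 had an unadjusted p of 0.0546 and was -0.76 ± 0.44 in the later pairs. All 3 tested members of the 5 listed were male-higher at all 3 stages, beside 14.2% of all tested microRNAs. The summed cluster was 5.37-fold higher in male PGCs at E11.5, 2.12-fold at E12.5 and 1.74-fold at E13.5. SC libraries held 1416 to 4458 RPM of the cluster, below every PGC library, whose range was 6550 to 73540 RPM.

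The miR-17/92 cluster and its paralogues, miR-106b/25 and the X-linked cluster of miR-106a to miR-363, are proliferation-linked microRNAs expressed in stem and germ cells. Of 23 listed members 20 were tested, 9 were male-higher at all 3 stages (14.2% of all tested) and 1 was female-higher (27.1% of all tested). Their median log2 difference was -0.50, against 0.05 for all tested microRNAs, and -0.61 in the later pairs, against 0.14. The summed list ran from 108052 to 135165 RPM in female PGCs and from 161136 to 163829 RPM in male PGCs, so the female and male sums did not overlap in RPM. On the deposited scale the E11.5 sum turned to 1.60-fold higher in the female library, while the later pairs kept the male library higher.

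Of the 9 male-higher members, 5 share the seed AAAGUGC, a grouping made after the values were seen. miR-17-5p stood at 17879 and 26726 RPM (E11.5, female and male), 11774 and 22191 RPM (E12.5), and 15958 and 23617 RPM (E13.5). Every male library exceeded every female library, and the log2 difference was -0.69 ± 0.22 (SE, n = 3 pairs, unadjusted p 0.0285, adjusted p 0.287 by limma), with -0.74 ± 0.32 in the later pairs. miR-93-5p, from the Mcm7 intron, stood at 15154 and 21900 RPM, 14490 and 25742 RPM, and 18307 and 25340 RPM, again without overlap, a difference of -0.61 ± 0.22, and -0.65 ± 0.32 in the later pairs. The deposited E11.5 values of both reversed, with miR-17-5p at 16050 in the female and 9878 in the male library.

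miR-20a-5p, the neighbour of miR-17 on chromosome 14, stood at 26967 and 49387 RPM at E11.5, 8999 and 28294 RPM at E12.5 and 30904 and 39731 RPM at E13.5. In RPM it was male-higher in every pair with overlapping groups, a log2 difference of -0.96 ± 0.32 (unadjusted p 0.0352), and -1.01 ± 0.40 in the later pairs. Its deposited E11.5 values turned, at 24210 in the female and 18253 in the male library. The X-linked paralogue miR-20b-5p stood at 423.4 and 6356 RPM, 4047 and 8546 RPM, and 5743 and 8092 RPM. Its groups did not overlap, but its difference of -1.82 ± 0.72 came down to -0.79 ± 0.33 in the later pairs. miR-106a-5p, its neighbour on X, gave 219.5 and 2354 RPM, 1397 and 2666 RPM, and 1897 and 2973 RPM, with -1.65 ± 0.61 over all pairs and -0.79 ± 0.34 in the later ones.

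The sixth member with that seed, miR-106b-5p, was male-higher at E11.5 (1534 and 2511 RPM) and E12.5 (617.5 and 1585 RPM) but not at E13.5 (2445 and 2294 RPM). The 6 together summed to 41324 to 75254 RPM in female and 89025 to 109235 RPM in male PGCs, and their median log2 difference was -0.82, with -0.76 in the later pairs and -0.52 on the deposited scale. The neighbouring product miR-92a-3p, which has another seed, stood in the opposite order at E12.5. It was at 27468 and 35014 RPM, 77378 and 54362 RPM, and 31723 and 39165 RPM, a difference of -0.05 ± 0.28.

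**Figure D2:**
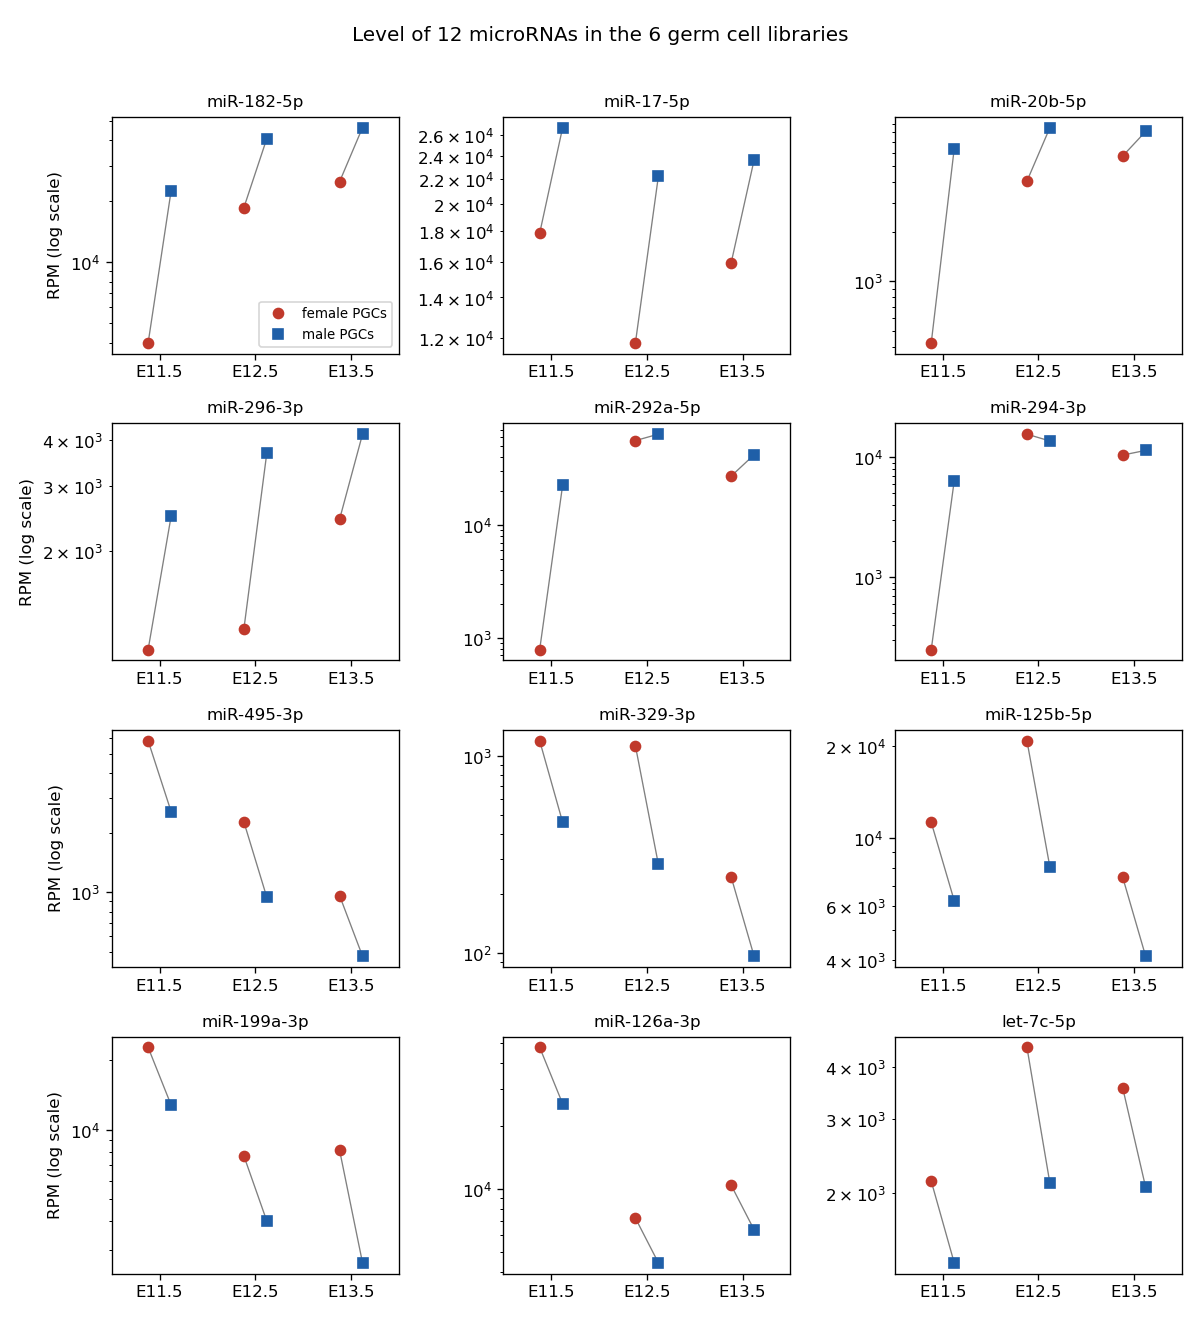
RPM (log axis, with its own range in each panel) of 12 microRNAs in the 6 PGC libraries by stage, female as red circles and male as blue squares joined within a stage. miR-182-5p, miR-17-5p, miR-20b-5p and miR-296-3p were higher in the male library of all 3 pairs, miR-294-3p changed order between stages, and the microRNAs of the last 2 rows were higher in the female library of all 3 pairs.

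Outside these clusters, miR-296-3p had the smallest unadjusted p among male-higher microRNAs. miR-296 lies in the imprinted Gnas region of chromosome 2 (mature sequence at chr2:174267058-174267079) and is known from stem cell differentiation. It stood at 1083 RPM in female and 2486 RPM in male PGCs at E11.5, 1229 and 3692 RPM at E12.5, and 2440 and 4153 RPM at E13.5. The lowest male value lay just above the highest female value, and the log2 difference was -1.18 ± 0.26 (SE, n = 3 pairs, unadjusted p 0.00753, adjusted p 0.247 by limma), with -1.17 ± 0.36 in the later pairs. On the deposited scale its E11.5 pair was 972.6 in the female and 918.8 in the male library, so the order of that pair turned.

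miR-129-5p was also male-higher in each pair, at 39.31 and 131.7 RPM, 167.9 and 374.6 RPM, and 83.67 and 198.8 RPM, a difference of -1.26 ± 0.28 (unadjusted p 0.00848), and -1.14 ± 0.50 in the later pairs. X-linked miR-18b-5p was male-higher in each pair in RPM, with 124.5 and 286.5 RPM at E11.5 and 162.7 and 356.9 RPM at E13.5, a difference of -1.35 ± 0.31 (-1.45 ± 0.55 in the later pairs), and its deposited E11.5 values were 111.7 and 105.9. These are low levels, and its 35.97 RPM in the shallow female E12.5 library lies near that library's floor of 29.98 RPM. miR-7a-5p and miR-421-3p were among the 10 largest male-higher differences of the later pairs, at -1.10 ± 0.36 and -1.41 ± 0.59, and miR-7a-5p stood in the opposite order at E11.5 (10780 RPM in female and 8946 RPM in male PGCs).

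The miR-290 cluster, the main microRNA cluster of mouse embryonic stem cells and early germ cells, differed between the sexes mainly through the E11.5 pair. All 14 listed members were tested, and all 14 were male-higher at E11.5, with log2 differences of -5.5 to -1.73. At E12.5 the counts were 6 female-higher and 8 male-higher, and at E13.5 they were again 6 and 8. The median log2 difference of the cluster was -1.59 over all pairs and -0.18 in the later pairs, and 4 of 14 were male-higher at all 3 stages (14.2% of all tested). The cluster summed to 127995 RPM in female and 143011 RPM in male PGCs at E12.5 and to 97754 and 119349 RPM at E13.5.

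Its members did not move as one in the later pairs. miR-293-3p stood at 5210 RPM in female and 15719 RPM in male PGCs at E12.5 and at 23934 and 29743 RPM at E13.5, after 362.8 and 16921 RPM at E11.5. Its log2 difference was -2.47 ± 1.06 over all pairs and -0.95 ± 0.40 in the later ones. miR-292a-5p, the most abundant member, stood at 789.4 and 22656 RPM, 56126 and 63994 RPM, and 27149 and 42041 RPM, with -0.41 ± 0.33 in the later pairs. miR-294-3p was female-higher at E12.5 (15569 and 13656 RPM) and male-higher at E13.5 (10419 and 11398 RPM), a later difference of 0.03 ± 0.32. The 5 tested microRNAs with the seed AAGUGCU, miR-291a-3p, miR-294-3p and miR-295-3p with miR-302b-3p and miR-302d-3p, had a median of 0.03 in the later pairs.

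The miR-302 cluster, a related stem cell cluster, was scarce in both sexes at 69 to 677 RPM in sum. Of its 5 listed members 3 were tested, and miR-302b-3p stood at 286.6 and 351.2 RPM, 155.9 and 184.6 RPM, and 58.1 and 40.79 RPM, a difference of -0.03 ± 0.31. The X-linked Fx-mir cluster at chrX:66776760-66839121, a block of testis microRNAs, summed to 43 and 1333 RPM in female and male PGCs at E11.5, 4328 and 4789 RPM at E12.5, and 32218 and 32389 RPM at E13.5. Of its 31 listed members 24 were tested, 5 were male-higher at all 3 stages (14.2% of all tested) and 0 female-higher (27.1% of all tested). The median difference of the cluster was -0.69 over all pairs and -0.03 in the later pairs. Its most abundant member miR-881-3p stood at 13.92 and 455.1 RPM, 443.6 and 933.9 RPM, and 8362 and 8413 RPM, so that the E13.5 pair was level, with a difference of -0.53 ± 0.39 in the later pairs. Members of the miR-465 family have nearly identical copies, and the mature 3p arms of miR-465a, miR-465b and miR-465c are identical in RefSeq, so reads between them are uncertain.

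**Figure D3:**
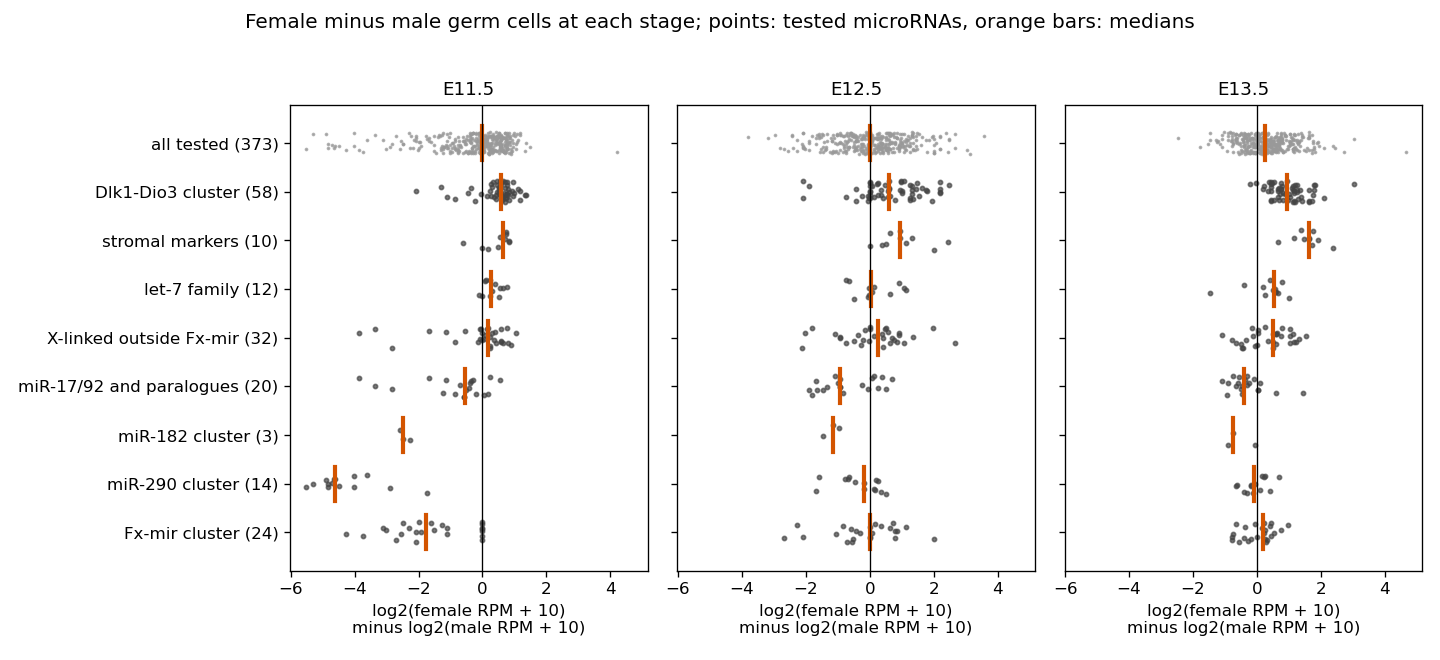
Log2 difference of female minus male PGCs, with 10 RPM added to both values, for each tested microRNA (points) at each stage, 1 panel a stage, by list, with the number tested in brackets and orange bars at the medians. All 14 miR-290 members lie below 0 at E11.5 and on both sides of 0 later, while the Dlk1-Dio3 and stromal medians lie above 0 at each stage and the miR-182 median below 0.

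Among female-higher microRNAs the largest group came from the Dlk1-Dio3 region, an imprinted domain whose microRNAs are made from the maternal copy and are known from embryonic and placental tissue. Of 87 listed members 58 were tested, 38 were female-higher at all 3 stages (27.1% of all tested) and only miR-665-3p was male-higher at all 3 (14.2% of all tested). At an unadjusted p under 0.05 there were 24 female-higher members (13.1% of all tested) and 0 male-higher (3.22% of all tested), and none passed the adjusted threshold by limma. The median difference was 0.75 over all pairs, 0.78 in the later pairs and 0.92 on the deposited scale, against 0.05, 0.14 and 0.35 for all tested microRNAs. In sum the region reached 132188 RPM in female and 90100 RPM in male PGCs at E11.5, 44831 and 25123 RPM at E12.5, and 32713 and 18296 RPM at E13.5. The female library was thus 1.47-fold, 1.78-fold and 1.79-fold higher, and in the somatic fraction the same ratios were 0.907, 1.04 and 0.940.

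miR-329-3p had the smallest unadjusted p of all tested microRNAs. It stood at 1187 RPM in female and 459.8 RPM in male PGCs at E11.5, 1121 and 282.3 RPM at E12.5, and 244 and 96.87 RPM at E13.5. With 10 RPM added, the female library was 2.55-fold, 3.87-fold and 2.38-fold higher, and the groups overlapped only because both sexes were low at E13.5. The log2 difference was 1.52 ± 0.27 (SE, n = 3 pairs, unadjusted p 0.00361, adjusted p 0.247 by limma), with 1.60 ± 0.47 in the later pairs. On the deposited scale the pairs were 1066 and 169.9, 118.5 and 41.62, and 94.97 and 35.04.

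miR-495-3p stood at 5824 and 2560 RPM, 2272 and 944.8 RPM, and 964.5 and 476.7 RPM, a difference of 1.15 ± 0.21 (unadjusted p 0.00395), and 1.13 ± 0.37 in the later pairs. miR-127-3p, antisense to the imprinted gene Rtl1, stood at 6307 and 3193 RPM, 4101 and 1716 RPM, and 1941 and 1053 RPM, a difference of 1.04 ± 0.21, and 1.06 ± 0.34 in the later pairs. Both were higher in the female library of every pair on either scale. The most abundant member miR-541-5p stood at 18105 and 11122 RPM, 6505 and 4257 RPM, and 4237 and 2203 RPM, a difference of 0.75 ± 0.21 (0.78 ± 0.33 in the later pairs). Not all members took part: miR-379-5p, at the 5′ end of the largest block, had 15680 and 10972 RPM, 1888 and 1982 RPM, and 3084 and 1963 RPM, a difference of 0.37 ± 0.25.

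Several members with large differences were near the floor. miR-758-3p stood at 916.3 and 471.3 RPM at E11.5, 119.9 and 27.15 RPM at E12.5, and 72.05 RPM against a listed 0 at E13.5, so its fitted difference of 1.93 ± 0.49 depends on the added 10 RPM. miR-487b-3p (1.26 ± 0.33), miR-485-5p (1.34 ± 0.48) and miR-299a-5p (1.20 ± 0.34) were also among the 10 largest female-higher differences, and each was female-higher in all 3 pairs.

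The stromal markers, the miR-199a, miR-199b, miR-214, miR-143 and miR-145 microRNAs of mesenchyme and smooth muscle, stood higher in female PGC libraries too. Of 11 listed members 10 were tested, 8 were female-higher at all 3 stages (27.1% of all tested) and 0 male-higher, with a median difference of 1.07 over all pairs, 1.28 in the later pairs and 1.18 on the deposited scale. They summed to 97255 RPM in female and 66336 RPM in male PGCs at E11.5, 22553 and 12249 RPM at E12.5, and 31513 and 9726 RPM at E13.5, so the female library was 1.47-fold, 1.84-fold and 3.24-fold higher. In each PGC library 1 or 2 of the 11 were listed at 0. The part of stromal cells in the Dlk1-Dio3 difference and in the others above was not tested. In such bulk libraries, fewer cells of a type and less RNA per cell cannot be told apart.

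miR-199a-3p, whose sequence is identical to miR-199b-3p, stood at 22804 and 12816 RPM, 7710 and 4013 RPM, and 8162 and 2644 RPM, a difference of 1.13 ± 0.26 (SE, n = 3 pairs, unadjusted p 0.00915, adjusted p 0.247 by limma), and 1.28 ± 0.34 in the later pairs. miR-214-3p stood at 2136 and 1446 RPM, 1840 and 445.2 RPM, and 464.8 and 173.4 RPM, a difference of 1.32 ± 0.36 that was 1.70 ± 0.42 in the later pairs. miR-145a-5p stood at 2213 and 1333 RPM, 1541 and 276.9 RPM, and 488.1 and 170.8 RPM, a difference of 1.54 ± 0.40, and 1.95 ± 0.46 in the later pairs. All were higher in the female library of each pair on both scales, while miR-199b-5p was male-higher at E11.5 (787.7 and 1194 RPM) and female-higher later.

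Markers of other cell types were read in the same way. The endothelial microRNA miR-126a-3p stood at 47621 and 25562 RPM, 7254 and 4431 RPM, and 10433 and 6376 RPM, a difference of 0.77 ± 0.20 (0.71 ± 0.31 in the later pairs), and the 2 endothelial members together were 1.85-fold, 1.63-fold and 1.66-fold higher in female PGCs. The red cell microRNA miR-451a stood at 1260 and 445.9 RPM, at 71.94 RPM against a listed 0, and at 134.8 and 48.44 RPM, a fitted difference of 1.94 ± 0.46 that depends on the added 10 RPM. The 6 erythroid members summed to 200 to 1957 RPM in female and 65 to 977 RPM in male PGCs, with up to 4 of the 6 at 0. Of the 4 tested, only miR-451a was female-higher at all 3 stages, and the other 3, which include miR-486a-5p (13.94 and 25.49 RPM), were male-higher at E13.5, where the list's median difference was -0.40. The 4 muscle markers were all at 0 in the E12.5 libraries and the male E13.5 library, and the liver list was at 0 in 3 of the 4 later libraries. Kidney markers were at 1275 to 3551 RPM in female and 1733 to 2598 RPM in male PGCs, and neural markers at 5090 to 12450 RPM and 7851 to 11171 RPM.

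The let-7 family, repressors of growth genes that rise as embryonic cells differentiate, was tested with 12 of 18 listed members, of which 6 were female-higher at all 3 stages (27.1% of all tested) and 1 male-higher. The median difference was 0.24, with 0.20 in the later pairs, against 0.05 and 0.14 for all tested microRNAs. The summed family was female-higher in each pair in RPM but male-higher at E12.5 on the deposited scale (2387 and 2913). Its clearest member let-7c-5p stood at 2132 RPM in female and 1359 RPM in male PGCs at E11.5, 4460 and 2107 RPM at E12.5, and 3570 and 2062 RPM at E13.5. The groups did not overlap, with the lowest female value just above the highest male value, and the difference was 0.84 ± 0.22 (SE, n = 3 pairs, unadjusted p 0.0149, adjusted p 0.247 by limma), and 0.93 ± 0.33 in the later pairs. The more abundant let-7g-5p (3772 and 3512 RPM, 2884 and 4040 RPM, 6461 and 4380 RPM) changed order between stages, a difference of 0.06 ± 0.28.

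miR-125b and miR-99a sit beside let-7c in the genome, and miR-100 beside another let-7 copy. miR-125b-5p stood at 11252 and 6256 RPM, 20755 and 8036 RPM, and 7458 and 4122 RPM, a difference of 1.02 ± 0.23 (unadjusted p 0.00861) and of 1.11 ± 0.33 in the later pairs, and it was female-higher in each pair with overlap between groups. miR-100-5p stood at 8693 and 4595 RPM, 5905 and 3095 RPM, and 2443 and 1129 RPM, a difference of 0.99 ± 0.20 (unadjusted p 0.00623), and 1.02 ± 0.33 in the later pairs. miR-99a-5p was likewise female-higher in each pair, by 0.74 ± 0.24. Their relatives on chromosome 17, miR-99b-5p (0.18 ± 0.32) and miR-125a-5p (0.16 ± 0.28), were female-higher at E11.5 and E12.5 and male-higher at E13.5. Of the 9 tested members of the miR-125, miR-99 and miR-100 list, 4 were female-higher (27.1% of all tested) and 2 male-higher (14.2% of all tested) at all 3 stages.

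MicroRNAs hosted by the Hox clusters were among the most abundant in both sexes. miR-10a-5p stood at 68820 and 59767 RPM, 113744 and 92299 RPM, and 62811 and 49416 RPM, and miR-10b-5p at 81577 and 47444 RPM, 88697 and 66758 RPM, and 60482 and 50576 RPM. Both were female-higher in each pair by small differences, 0.28 ± 0.21 and 0.48 ± 0.24, and on the deposited scale the E12.5 pair of each was male-higher. miR-196a-5p had a larger one, 1.04 ± 0.24 (unadjusted p 0.0102), from 3162 and 1941 RPM, 1307 and 608.1 RPM, and 578.7 and 226.9 RPM. Of the 6 tested members of the 8 listed, 5 were female-higher at all 3 stages (27.1% of all tested).

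MicroRNAs on the X chromosome outside Fx-mir, present in 2 copies in XX and 1 in XY cells, stood in both directions, more of them female-higher. Of 54 listed members 32 were tested, with 12 female-higher (27.1% of all tested) and 6 male-higher (14.2% of all tested) at all 3 stages. By the fit 22 were female-higher and 10 male-higher, beside 201 and 172 of all 373. The median difference was 0.34 over all pairs and 0.28 in the later pairs, against 0.05 and 0.14 for all tested microRNAs. Female and male values did not overlap for 4 female-higher members (1.61% of all tested) and 2 male-higher ones (1.88% of all tested). The summed list was close between the sexes, at 24736 to 27611 RPM in female and 24568 to 32629 RPM in male PGCs. miR-351-5p was female-higher without overlap, at 4021 and 3440 RPM, 4412 and 2335 RPM, and 4544 and 1820 RPM, a difference of 0.82 ± 0.29 (1.12 ± 0.33 in the later pairs), while miR-20b-5p and miR-106a-5p above were male-higher without overlap. miR-221-3p, with miR-222-3p a repressor of the germ cell receptor Kit, stood at 409.4 and 302.7 RPM, 611.5 and 466.9 RPM, and 741.4 and 492 RPM, a difference of 0.46 ± 0.23, and miR-222-3p gave 0.25 ± 0.34.

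Lists tied to germ cell and gonad differentiation gave no common direction over the stages. miR-29, miR-148 and miR-152, which target DNA methyltransferases, had 6 tested members with a median of -0.30, and their sum was 1.74-fold higher in male PGCs at E12.5 and close to level at the other stages. miR-148a-3p stood at 19293 and 18095 RPM, 7800 and 13889 RPM, and 24652 and 26429 RPM (-0.28 ± 0.28). The epithelial miR-200 family had 7 tested members with a median of -0.41, and -0.18 in the later pairs, with a sum 2.19-fold higher in male PGCs at E11.5, and miR-200b-3p stood at 6236 and 11258 RPM, 23956 and 28772 RPM, and 16650 and 17855 RPM. miR-202-5p, a microRNA of supporting cells of the testis, stood at 257.9 and 154.8 RPM, 461.6 and 619 RPM, and 2982 and 996.8 RPM in female and male PGCs. At E13.5 its order was opposite in SC (8436 RPM in female and 16334 RPM in male). The summed gonadal list was 1.55-fold higher in female PGCs at E13.5, again opposite to SC (11516 RPM in female and 31699 RPM in male). The scarcer arm miR-202-3p, at a mean of 47.14 RPM, was female-higher in each PGC pair (0.507 ± 0.368), and its E13.5 log2 difference was 0.105 in PGCs and -4.286 in SC. miR-140-3p, a SOX9-linked microRNA of the testis, was nearly level in PGCs at 1006 and 1051 RPM, 689.4 and 852.5 RPM, and 1032 and 996.8 RPM (-0.11 ± 0.22). Its other arm miR-140-5p was not, with log2 differences of 0.004, -1.58 and -0.24 over the 3 stages in turn. The fit gave miR-140-5p -0.605 ± 0.395, and -0.91 ± 0.476 in the later pairs. The medians of the miR-30, miR-181, miR-15/16 and Sfmbt2 lists were -0.22, -0.01, -0.07 and -0.17, against 0.05 for all tested microRNAs.

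At single stages, with 1 library a sex and no test, microRNAs with at least 100 RPM in either library were counted as apart when they differed at least 4-fold after adding 10 RPM. At E11.5 this held for 24 of 289, 23 of them male-higher (7.96%) and 1 female-higher (0.346%), and the largest male-higher differences were those of miR-293-3p, miR-291a-5p (61.41 and 2805 RPM) and miR-291b-5p of the miR-290 cluster. At E12.5, the shallowest pair, 7 were female-higher (2.5%) and 6 male-higher (2.14%) of 280. The largest there were miR-485-5p (287.8 and 43.44 RPM) and miR-483-3p (587.5 and 97.73 RPM) toward female, and miR-677-5p (29.98 and 298.6 RPM) and miR-101b-3p (125.9 and 700.4 RPM) toward male, besides miR-34b-3p and miR-674-5p, each listed at 0 in 1 library. At E13.5 only miR-669a-5p and miR-499-5p (127.8 and 15.3 RPM) were apart of 285, both female-higher (0.702%), with 0% male-higher. At a 2-fold limit, E13.5 had 50 female-higher and 5 male-higher microRNAs (17.5 and 1.75%), E12.5 had 49 and 40 (17.5 and 14.3%), and E11.5 had 13 and 42 (4.5 and 14.5%).

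miR-669a-5p was the 1 microRNA past the threshold on the deposited scale (0.268% of 373, adjusted p 6.2e-05 by limma). It was listed at 172.8 RPM in the female E11.5 and 241.7 RPM in the female E13.5 library and at 0 in the other 4 PGC libraries, the female E12.5 library included. On the deposited scale the moderated SE went with the level of a microRNA and hardly with its own pairs. It was 0.78 for miR-126a-3p, miR-143-3p and miR-293-3p alike, so the small p-value of miR-669a-5p does not measure agreement among its pairs. In RPM the miR-669a-5p difference of 2.95 ± 1.06 had an adjusted p of 0.288 by limma. miR-669a has many near-identical copies in an intron of Sfmbt2, between which the counting may split reads, so its values are uncertain, and SC libraries listed it at 0 in 2 of 6.

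The sex difference of PGCs was set against that of SC in 1 fit of all 12 libraries. The interaction passed the threshold for 0 of 373 microRNAs (0% called, smallest adjusted p 0.327 by limma), and at an unadjusted p under 0.05 for 39 toward female PGCs (10.5%) and 16 toward male PGCs (4.29%). Of these, miR-214-3p had the smallest unadjusted p (0.00405), with a difference of 1.32 in PGCs and -0.63 in SC. miR-495-3p had -0.02 in SC (p 0.00837 unadjusted), miR-99a-5p had -0.25 (p 0.00897 unadjusted) and miR-125b-5p had -0.22 (p 0.0109 unadjusted). Toward male PGCs stood miR-20a-5p, with 0.33 in SC (p 0.0121 unadjusted), and miR-182-5p, with -0.17 (p 0.0227 unadjusted). Without E11.5 the interaction again passed for 0, with a smallest adjusted p of 0.66 by limma and 18 at an unadjusted p under 0.05. The Dlk1-Dio3 members had a median of -0.02 in SC and the stromal markers one of 0.25, against 0.75 and 1.07 in PGCs, and these medians were not tested. With 0 of 373 past the interaction threshold, a sex difference particular to PGCs was shown for no single microRNA.

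**Figure D4:**
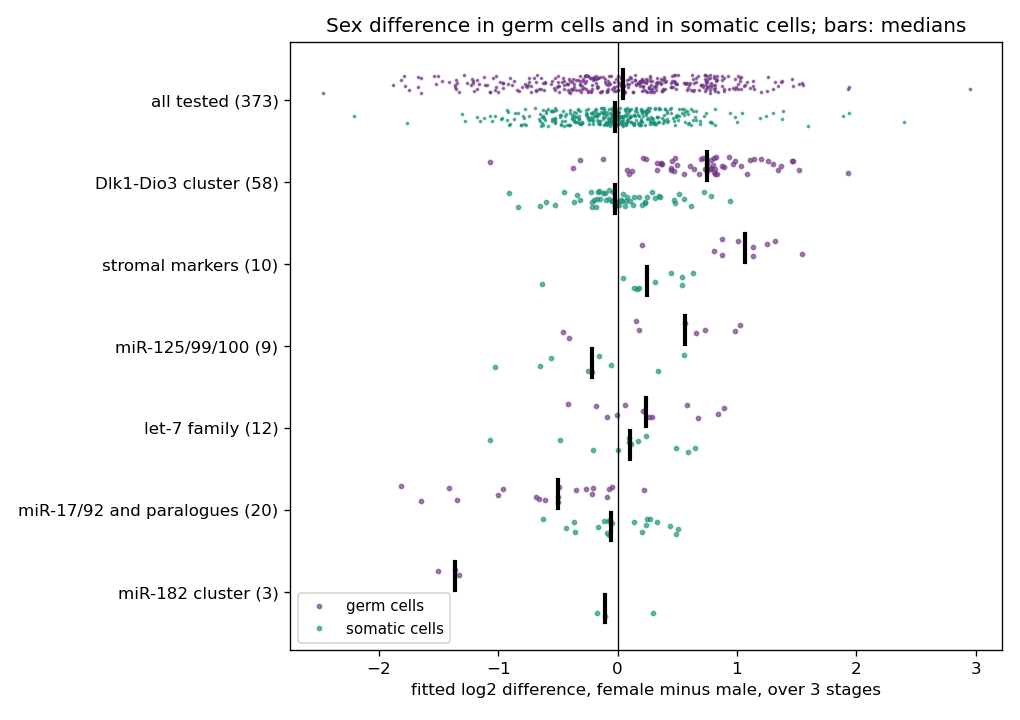
Fitted log2 difference of female minus male over 3 stages in PGCs (purple) and in SC (green) for the tested microRNAs of 6 lists and for all 373, with the number tested in brackets and black bars at the medians. The Dlk1-Dio3 medians are 0.75 in PGCs and -0.02 in SC, and the miR-182 medians -1.36 in PGCs and -0.11 in SC.

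By the median fold, female and male libraries lay slightly further apart in PGCs than in SC at E11.5, further apart at E12.5 and closer together at E13.5. Over the 291 microRNAs with a mean of at least 100 RPM in PGCs, the median fold between female and male libraries was 1.45, 1.56 and 1.38 in PGCs over the 3 stages in turn, and 1.40, 1.15 and 1.54 in SC. Depth was unequal at E12.5, with 166804 and 184174 reads in the female and male PGC libraries against 1492596 and 1380552 in SC. The part of depth, and of choosing microRNAs by their PGC level, was not tested. Some lists had a median difference over all pairs further toward female PGCs than that of all tested microRNAs. Of these lists, PGC libraries held 0.191 to 0.917 times the SC level of Dlk1-Dio3 and 0.11 to 0.743 times that of the stromal markers. The female E11.5 library stood above its SC partner in other such lists, at 1.39 times for the endothelial and 1.62 times for the erythroid markers, 1.26 times for miR-125/99/100, 1.16 times for the Hox-cluster microRNAs and 1.04 times for let-7. For the male E11.5 library the same ratios were 0.925, 0.467, 0.402, 1.07 and 1.15 in turn. The miR-182 cluster, higher in male PGCs, was at 1.78 to 37.1 times its SC level. These ratios use the same PGC libraries as the sex comparison and add no independent test to it.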

How the data were processed

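Small RNA libraries (RNA under 100 bp) were sequenced on a MiSeq. Per the submitters' processing notes, FastQC, Trim Galore, Bowtie 1.1.2, GRCm38 and DESeq were used. The read counter and the annotation were not given in the sources used here. Values were deposited by the authors as a normalized signal: whole reads per mature microRNA divided by 1 factor per library (100% whole multiples of the smallest value divided by 5, tolerance 1e-06, so 0 means under 5 reads). Of 3696 PGC values 1150 are 0.

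Each column was rescaled to RPM of its own sum. MicroRNAs with a mean of at least 30 RPM over the 6 PGC libraries (at least 99.6% of the reads of each) were tested with limma 3.58.1 in R 4.3.3 (moderated test with trend) on log2(RPM + 10), which understates the change of low microRNAs, with stage as a 3-level block and an adjusted p of 0.05 (Benjamini-Hochberg) as threshold. The fit was repeated without E11.5, on deposited values, and with SC libraries as an interaction of sex and fraction. The scripts were tested on simulated data. Precision rests on 166804 to 1221211 reads a library; intervals and floors cover counting error only.

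Named microRNAs were the 10 largest differences in each direction (all pairs, later pairs) among those with a mean of at least 100 RPM and the same direction in every pair of that fit, the 3 largest each way at each stage with at least 100 RPM in either library, the 4 most abundant members of each of 26 lists, miR-202 and miR-140, or the 5 smallest interaction p-values each way at a mean of at least 100 RPM over all 12 libraries. miR-127-3p, miR-100-5p, miR-106b-5p, miR-665-3p, miR-26a-5p and the microRNAs without overlap between groups were named after their values were seen. The members and lists were chosen with earlier results of these data known. Names were matched to RefSeq for 326 of 373 tested microRNAs. Alternatives were the scale, the added value, the filter, the block, left-out libraries, voom and quantile normalization.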

Additional observations from a re-analysis of the deposited data

How the results depend on the processing

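On deposited values the count of called microRNAs was 1 over all pairs and 1 in the later pairs, against 0 in RPM, in each case miR-669a-5p. Under the other alternatives run (added value of 1 or 30 RPM, no filter or a mean of 100 RPM, fits with SC libraries, no stage block, and, chosen after seeing the data, voom and quantile normalization) 0 passed by limma. Leaving out each pair, or each library with stage as a linear term, gave counts of 0 to 0. Without the stage block 0 had an unadjusted p under 0.05. The planned count-model fits (edgeR, DESeq2 and TMM scaling) were not run. The interaction count was 0 on deposited values, without E11.5 and with 1 RPM added. Single-stage counts of 24, 13 and 2 on the 3 days in turn became 48, 5 and 1 on deposited values and 55, 89 and 55 at 2-fold. At 8-fold, E12.5 and E13.5 had 2 and 1, and with 30 RPM added 7 and 1. At E11.5 the deposited split was 32 female-higher and 16 male-higher, against 1 and 23 in RPM. The 40 single microRNA results stayed outside the threshold in all 560 alternative values (adjusted p 0.161 to 1 by limma). They also kept their direction, but they had been chosen for the same direction in every pair of their fit. Leaving out a pair, the block or the filter could therefore not turn them, and the kept direction adds no support. Of 54 list medians, 13 moved beyond their spread. The cause was not tested. Libraries were paired by stage, since each group of the labels holds 1 library. Depth limits microRNAs under 29.98 RPM, the floor of the shallowest library.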

Other observations

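A pair of X-linked clusters that lie close together stood in opposite directions in germ cells, a grouping made after the values were seen and given with no test. The cluster of miR-106a to miR-363 (chrX:52741697-52742563 in GRCm38.p6) summed to 915 RPM in female and 10064 RPM in male PGCs at E11.5, 6295 and 12722 RPM at E12.5, and 9055 and 13121 RPM at E13.5. Of its 5 tested members, 4 were male-higher at all 3 stages (14.2% of all tested). Its miR-106a-5p and miR-20b-5p are nearly identical to miR-17-5p and miR-20a-5p of chromosome 14, so their share of the reads is uncertain. The cluster of miR-322 to miR-450 (chrX:53048008-53054327) summed to 16493 and 13915 RPM, 8951 and 6222 RPM, and 10361 and 4770 RPM. Of its 10 tested members, 5 were female-higher at all 3 stages (27.1% of all tested) and 0 male-higher (14.2% of all tested). The median log2 difference was -1.41 and 0.52 over all pairs and -0.79 and 0.62 in the later pairs.

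Single microRNAs outside the lists gave further values. The abundant miR-26a-5p stood at 29859 and 30578 RPM, 34855 and 36324 RPM, and 48912 and 42474 RPM, a difference of 0.04 ± 0.21 (SE, n = 3 pairs). miR-92b-3p went from male-higher at E11.5 (410.2 and 762.4 RPM) to female-higher at E12.5 (1469 and 532.1 RPM) and E13.5 (457.9 and 145.3 RPM), unlike miR-92a-3p, and its difference was 1.52 ± 0.41 in the later pairs. miR-375-3p did the reverse, with 1077 and 635.4 RPM at E11.5, 869.3 and 1330 RPM at E12.5, and 562.4 and 1341 RPM at E13.5, a difference of -0.92 ± 0.38 in the later pairs. On the deposited scale the E11.5 pairs of miR-26a-5p and miR-92b-3p turned to female-higher. The adjusted p was above the threshold for all of these.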
